A study of Mus musculus with 17 samples.

Results

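Plasma cells are the antibody-secreting end stage of the B cell lineage, and a set of 1417 promoter regions more open in bone marrow plasma cells (BMPC) than in naive B cells (nB) of Dnmt3-sufficient mice is described here. Accessibility was measured by ATAC-seq, in which a transposase cuts open chromatin and adds sequencing adapters to it, and is given as the reads in a region per 1e6 reads in all accessible regions of the library (RPPM). A promoter region annotated by the authors' table on an autosome was taken when its mean in Dnmt3-sufficient (C) BMPC was at least 5 RPPM and at least 2 times its mean in C nB. This held for 10.2% of 13880 autosomal promoter regions, out of 66177 accessible regions in all, while 842 promoter regions met the mirrored rule and 11621 met neither. The values of C nB and C BMPC therefore chose the regions and are given without a test, and tests use libraries that the rule did not read.

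All mice carried Dnmt3a fl/fl and Dnmt3b fl/fl alleles (labelled B6;129S4-Dnmt3atm3.1Enl Dnmt3btm5.1Enl/Mmnc). Dnmt3-deficient (KO) mice also carried 1 Cre allele active in the B lineage, which deletes both de novo DNA methyltransferases there, and C mice were littermates without Cre. They were young adults when the experiments began. nB (B220+ Fas- GL7-) came from lymph nodes of unimmunized male mice, with 3 C and 2 KO libraries. Antigen-specific germinal center B cells (GCB; B220+ Fas+ GL7+ PE+) came from lymph nodes 30 days after immunization with phycoerythrin (PE), each library from pooled mice, with 2 C and 4 KO libraries from female or male mice. BMPC (CD138+) came from bone marrow of immunized female mice, with 3 C and 2 KO libraries. Cell type, tissue, sex and immunization thus cannot be told apart between nB and BMPC, and the labels give no batch. Between nB and GCB, cell type and immunization cannot be told apart. An RPPM value averages all sorted cells, so that a region open in more cells cannot be told apart from one that is more open in each cell. Depth differed by cell type. nB libraries held 4104875 to 6079018 reads in regions (3 reads were worth 0.494 to 0.731 RPPM), GCB libraries 907959 to 2280954 (1.32 to 3.30 RPPM) and BMPC libraries 5357687 to 8232313 (0.364 to 0.560 RPPM).

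A plasma cell devotes much of its metabolism to the synthesis, folding, glycosylation and export of immunoglobulin. Its program is known to be set by the regulators IRF4, Blimp-1 (Prdm1) and XBP1, and by loss of the B cell factor PAX5. Promoters of genes that are active in many cell types are usually rich in CpG and open at the start site in every one of them. Accessibility specific to a cell type is more often found in CpG-poor sequence, where bHLH E proteins bind E-boxes, octamer factors bind the octamer and IRF proteins bind GAAA repeats.

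6 stretches of 120 bases from such regions are shown for the sequence features described further on. All are from the + strand of mm9 or, where marked, the - strand, and contain no annotated exon. The first and second show a repeat of GAAA, any 2 bases and GAAA, upstream of the start of Tnfrsf17, the gene of the plasma cell survival receptor BCMA (chr16:11313746-11313865, +), and of Foxo1, a forkhead factor (chr3:52070555-52070674, +). The next pair shows the octamer ATTTGCAT upstream of Fut8, the fucosyltransferase of N-glycan cores (chr12:78337096-78337215, +), and of Prmt7, an arginine methyltransferase (chr8:108762395-108762514, +). The fifth shows CAGGTG E-boxes upstream of Txndc5, a protein disulfide isomerase (chr13:38623523-38623642, -). The last shows a CpG-poor stretch at Evc, a gene of the primary cilium (chr5:37704348-37704467, -). Capitals mark the motif on either strand, and in the last the single CpG.
Tnfrsf17: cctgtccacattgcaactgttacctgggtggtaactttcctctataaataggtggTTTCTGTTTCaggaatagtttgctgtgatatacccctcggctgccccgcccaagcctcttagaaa
Foxo1: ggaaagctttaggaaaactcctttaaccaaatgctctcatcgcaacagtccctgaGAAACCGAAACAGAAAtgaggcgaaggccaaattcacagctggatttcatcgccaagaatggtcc
Fut8: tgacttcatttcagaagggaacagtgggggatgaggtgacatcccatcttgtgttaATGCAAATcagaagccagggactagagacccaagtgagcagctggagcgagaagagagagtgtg
Prmt7: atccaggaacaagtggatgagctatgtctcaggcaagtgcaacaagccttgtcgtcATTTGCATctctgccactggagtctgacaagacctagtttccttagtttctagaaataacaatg
Txndc5: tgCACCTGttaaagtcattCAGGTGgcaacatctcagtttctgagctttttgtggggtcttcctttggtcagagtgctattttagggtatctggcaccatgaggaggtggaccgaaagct
Evc: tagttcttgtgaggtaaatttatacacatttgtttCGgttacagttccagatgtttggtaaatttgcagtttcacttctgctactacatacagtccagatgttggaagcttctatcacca
Mir148a encodes a microRNA, whose main mature form (mmu-miR-148a-3p, RefSeq, GRCm38.p6) is given with its seed, bases 2 to 8, in capitals.
miR-148a-3p: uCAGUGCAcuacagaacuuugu

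The levels that chose the regions were mostly low in nB. The mean over C nB libraries had a median of 3.63 RPPM over the regions, with 853 regions under 5 RPPM and 86 at 20 RPPM or more. In C BMPC the median was 16.1 RPPM. With the pseudocount of the main test added to both means, the median ratio of C BMPC to C nB was 3.03. The pseudocount lowers the ratio of every region of the set, and the rule itself used the plain ratio. The other promoter regions had medians of 36.2 RPPM in C nB and 38.2 RPPM in C BMPC. The upper quartile of the set in C BMPC, 29.1 RPPM, was below that median of other promoters. The 5 most open in C BMPC were those of Irf7, the interferon regulatory factor (138 ± 5.12 RPPM, SD, n = 3), Bbc3, the proapoptotic protein PUMA (127 ± 5.39), the zinc finger genes Zfp658 (99.04 ± 3.84) and Hivep3 (98.1 ± 7.36), and Prrg4 (97.8 ± 5.67). At the limit of 5 RPPM, Zbtb16 (5.005), Arhgef3 (5.01) and Slamf8 (5.02) lay just inside and Slc12a4 (4.99), Shisa4 (4.98) and the region shared by Pla2g2c and Ubxn10 (4.96) just outside. At the limit of 2-fold, Espn (2.003), Kdm2b (2.005) and Atp8b3 (2.007) lay just inside and Satb1 (1.9998), Cnot4 (1.9991) and Pcp4l1 (1.9987) just outside.

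**Figure D1:**
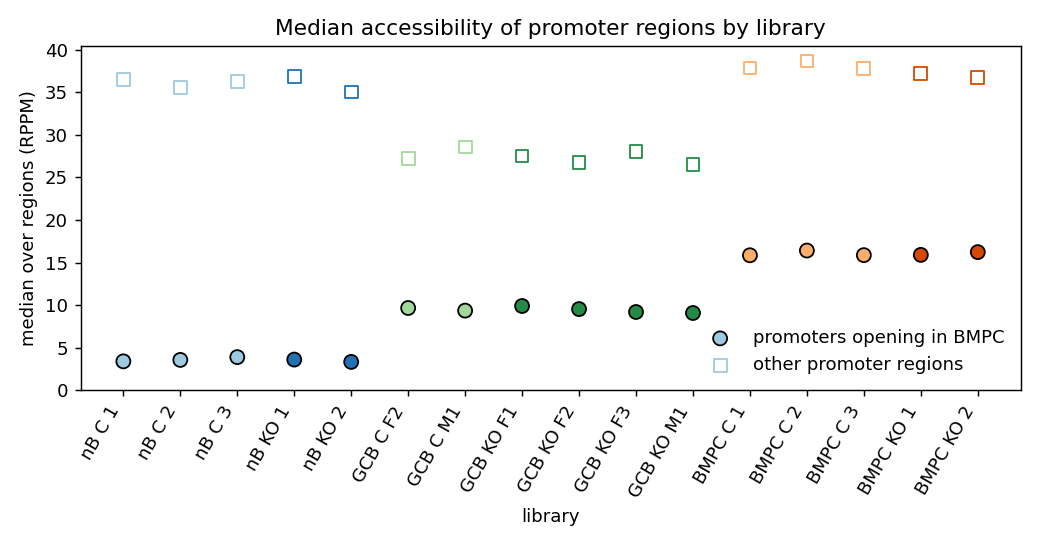
Median RPPM over the 1417 promoter regions opening in BMPC (circles) and over the 12463 other autosomal promoter regions (squares), 1 point per library, with cell type and genotype by colour. The circles lie at 3.35 to 3.91 RPPM for nB, 9.09 to 9.91 for GCB and 15.9 to 16.4 for BMPC, while the squares are lowest in GCB.

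The same regions were open in BMPC of KO mice, which the rule did not read. Per library, the median over the regions was 3.62 and 3.35 RPPM in KO nB and 15.9 and 16.2 RPPM in KO BMPC, beside 3.41 to 3.91 in C nB and 15.9 to 16.4 in C BMPC. A region was called where limma on log2(RPPM + 1) gave an adjusted p up to 0.01 and a change of 2-fold or more. By this rule 1204 of the 1417 regions (85%) were called higher in KO BMPC than in KO nB and 0 lower, against 18.4% of all regions called higher. Of the other promoter regions, 406 (3.26%) were called higher and 808 lower. The median difference over the set was 1.67 on the log2 scale (quartiles 1.23 and 2.34), against 0.02 over other promoter regions. Both KO BMPC libraries lay above both KO nB libraries in 1413 of 1417 regions, where 43.4% of all regions did so. The share called higher was 67.3% of the 532 regions that differed 2 to 3-fold in C, 94.9% of the 643 that differed 3 to 10-fold and 97.5% of the 242 that differed by more.

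**Figure D2:**
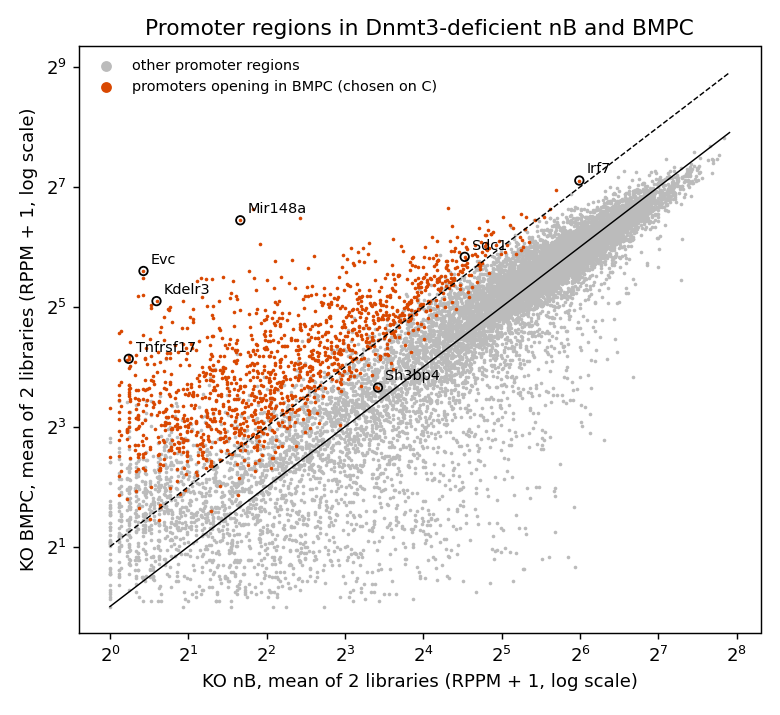
Each point is an autosomal promoter region at its mean RPPM + 1 in the 2 KO nB libraries (horizontal, log scale) and the 2 KO BMPC libraries (vertical, log scale), with the regions chosen on C mice in orange. The solid line marks equality and the dashed line a 2-fold change: orange points fill the upper left, from Tnfrsf17 and Evc near 0 RPPM in nB to Irf7, which was already at 62.6 RPPM there.

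The 10 largest changes in KO were in promoter regions of genes of varied function, most of these regions nearly closed in nB. The Evc region (chr5:37703824-37704992) measured 0.494 and 0.197 RPPM in KO nB and 41.3 and 53.6 RPPM in KO BMPC. This was a log2 difference of 5.17 ± 0.24 (SE, adjusted p = 2.64e-15), and KO nB held 4 reads in all against 627 in KO BMPC, a ratio of 129 in RPPM (95% counting interval 50.03 to 474). Atp9a, a P4-type ATPase, rose by 5.06 ± 0.30 from 0.494 and 0.197 to 42.0 and 45.4 RPPM. Hivep3 (chr4:119485250-119486345, 937 bp upstream of the start) stood at 3.29 and 1.77 RPPM in KO nB and at 90.9 and 106 RPPM in KO BMPC, a log2 difference of 4.84 ± 0.28 (adjusted p = 1.22e-13). In each of these 3 regions both KO BMPC libraries stood far above both KO nB libraries.

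The region of Mir148a (chr6:51220204-51221634) had 1.97 and 2.36 RPPM in KO nB, 28.7 to 50.7 (median 40.4) in the 4 KO GCB libraries and 83.8 and 88.3 in KO BMPC. The 3 cell types did not overlap, and the differences were 4.78 ± 0.20 from KO nB to KO BMPC (adjusted p = 5.31e-16), 3.67 ± 0.18 from KO nB to KO GCB and 1.11 ± 0.18 from KO GCB to KO BMPC. The other 6 of the 10 were Zfp9 (4.84 ± 0.28), Fam162b (4.77 ± 0.39), the KDEL receptor gene Kdelr3 (4.53 ± 0.32), Prmt7 (4.49 ± 0.32), Exosc10, a subunit of the nuclear RNA exosome (4.47 ± 0.35), and Slc7a5, the light chain of a large neutral amino acid transporter (4.43 ± 0.37). The regions of Evc, Mir148a and Fam162b lay 220, 294 and 67 bp upstream of a start site. Those of Prmt7, Exosc10 and Slc7a5 lay 2390, 1600 and 1503 bp upstream, and levels at these start sites are not given here.

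The 5 smallest changes in KO were those of Cbx7, a Polycomb protein (0.10 ± 0.38), Sh3bp4 (0.20 ± 0.28), Rhobtb3 (0.26 ± 0.39), the histone demethylase gene Kdm2b (0.27 ± 0.30) and 1110038B12Rik (0.31 ± 0.67), and none of these was called. At Sh3bp4 the KO BMPC libraries, at 14.2 and 8.96 RPPM, lay on both sides of the KO nB libraries, at 9.38 and 10.0, and the difference was -0.10 without the first KO BMPC library. At 1110038B12Rik the 3 C BMPC libraries themselves spread from 1.30 to 17.4 RPPM.

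Genes of secretion were present in the set in 2 forms, namely regions that covered a start site and regions beside a start site that was already open in nB. Export from the endoplasmic reticulum (ER) gave clear cases of the first. Kdelr3, which returns ER residents from the Golgi (chr15:79346525-79347464, at the start site), measured 0.823 and 0.197 RPPM in KO nB, 5.26 to 11.9 (median 7.04) in KO GCB, and 30.7 and 35.6 in KO BMPC. Sec24d, a cargo adaptor of COPII vesicles (chr3:122969797-122971317, at the start site), went from 16.6 and 21.3 to 99.4 and 100.2 RPPM (2.35 ± 0.15, adjusted p = 5.16e-13). Trappc3, of a vesicle tether, rose by 2.24 ± 0.32 in a region 1220 bp upstream of its start. The fourth, Tmed7, a p24 cargo receptor, had 7.57 and 10.0 RPPM in KO nB and 15.3 and 15.5 in KO BMPC, which did not pass (0.75 ± 0.25, adjusted p = 0.0135). Of 53 promoter regions of 41 measured traffic genes, 6 were in the set, the others being at Sar1b and Lman1, and 5 of the 6 were called higher in KO. Over all 53, the median difference was 0.25, and 1 region was called lower.

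Genes listed for the unfolded protein response gave 4 of 18 regions, and 3 of the 4 were called higher in KO BMPC than in KO nB. Over all 18, 3 were called higher and 0 lower, with a median of 0.28. Creb3l1, a transcription factor held in the ER membrane (chr2:91863697-91864993, at the start site), stood at 1.97 and 2.16 RPPM in KO nB, at 7.89 to 11.01 (median 10.0) in KO GCB and at 37.0 and 31.2 in KO BMPC (3.51 ± 0.24 from nB to BMPC, adjusted p = 2.59e-12). Chac1, a glutathione-degrading enzyme induced by ATF4 (chr2:119176257-119177526, at the start site), went from 4.44 and 3.54 to 48.7 and 59.4 RPPM (3.46 ± 0.23). In both genes every KO GCB library lay between the nB and BMPC libraries. Creb3, a relative of Creb3l1, rose by 1.68 ± 0.28 in a region 1874 bp downstream of the start. Its start site was at 72.7 ± 4.9 RPPM in KO nB and 71.5 ± 1.3 in KO BMPC. A region 883 bp upstream of Creb3l2 measured 1.48 and 2.56 RPPM in KO nB and 6.44 and 6.53 in KO BMPC (1.33 ± 0.44, adjusted p = 0.013, not called by limma in the fit of all groups but called by edgeR, DESeq2 and limma on the compared groups alone). The start site of Xbp1 was not in the set, at 61.2 ± 0.89 RPPM in KO nB and 78.1 ± 5.7 in KO BMPC (SD, n = 2). Start sites of Ern1 (0.43 ± 0.14), Atf6 (0.69 ± 0.22) and Atf6b (-0.38 ± 0.15) were also outside the set and not called.

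Folding and degradation genes were mostly of the second form. The region of Txndc5 in the set lay 2469 bp upstream (chr13:38623163-38623822) and rose from 8.39 and 7.48 to 57.9 and 60.1 RPPM (2.75 ± 0.25, adjusted p = 8.17e-10), while the start site itself was at 65.2 ± 2.3 in KO nB and 70.5 ± 0.45 in KO BMPC. The region upstream of Pdia4, another disulfide isomerase, rose by 1.74 ± 0.39 (a call lost without KO BMPC library 2) beside a start site at 94.9 ± 2.2 in KO nB and 84.5 ± 12 in KO BMPC. That of Edem3, a mannosidase-like protein of ER-associated degradation (chr1:153600940-153601724), measured 8.88 and 8.07 in KO nB, 9.91 to 11.2 in KO GCB and 51.1 and 54.3 in KO BMPC, beside a start site at 121 ± 9.9 in KO nB. Vcp, the ATPase that extracts degradation substrates, had 0.987 and 0.394 RPPM in KO nB and 31.8 and 28.0 in KO BMPC in a region 2467 bp upstream (4.21 ± 0.43), beside a start site at 85.8 ± 3.9 and 76.7 ± 0.26.

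Ube2j1, a ubiquitin-conjugating enzyme of the same pathway, rose by 4.29 ± 0.30 in a region 1633 bp downstream of its start. Fkbp11, an ER prolyl isomerase, opened at the start site, from 9.05 and 5.90 to 23.8 and 23.0 RPPM (1.55 ± 0.28). Sil1, the exchange factor of the chaperone BiP, had 38.2 and 35.8 RPPM in KO nB and 61.1 and 60.7 in KO BMPC, a difference of 0.70 ± 0.18 (adjusted p = 0.00174) that was under 2-fold. In counts, 5 of 28 chaperone regions were in the set, with Hyou1 as the fifth gene, and 4 of the 5 were called. For ER-associated degradation these counts were 3 of 26 and 3 of 3. The medians over all regions of the lists were 0.10 and 0.19.

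Beside 10.2% of all promoter regions, the share of regions in the set was 11.3% for traffic, 11.5% for ER-associated degradation, 8% for entry into the ER and 4.17% for glycosylation. The 2 regions of the translocation list, out of 25, were upstream regions assigned to Srp54b and Srp54a (1.26 ± 0.32) and to Srp54a and Srp54c (1.21 ± 0.32), genes of the signal recognition particle. These are near-identical copies between which reads cannot be placed with certainty. Each call was lost without either KO BMPC library, and without 1 KO nB library (library 2 for the first, library 1 for the second). Of 48 glycosylation regions, 2 were in the set: Fut8 (0.823 and 0.590 in KO nB, 18.1 and 17.4 RPPM in KO BMPC, 3.46 ± 0.35), 1810 bp upstream of a start site at 79.0 ± 0.23 in KO nB, and Mgat1, the first enzyme of complex N-glycans (1.33 ± 0.22), upstream of a start site at 120 ± 11. The medians over the 2 lists were 0.07 and 0.05.

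Amino acid supply gave 3 regions of 38. Asns, asparagine synthetase (chr6:7642666-7643548, at the start site), measured 2.14 and 0.590 RPPM in KO nB, 28.6 to 36.3 (median 33.2) in KO GCB, and 31.8 and 31.0 in KO BMPC. The rise from nB to GCB was 3.92 ± 0.22 (adjusted p = 1.05e-13), while GCB and BMPC overlapped (-0.06 ± 0.22, adjusted p = 0.842). Slc7a5 went from 0.494 and 0.394 to 24.8 and 36.4 RPPM, 1503 bp upstream of its start, and a start site of the cationic amino acid transporter gene Slc7a7 from 4.28 and 2.36 to 24.8 and 25.01 (2.62 ± 0.33). The median over the list was 0.19.

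Among plasma cell transcription regulators, 8 of 38 regions were in the set and 5 of the 8 were called higher in KO BMPC. Bhlha15, the bHLH factor MIST1 of secretory cells (chr5:144950390-144951576, at the start site), had 18.3 and 15.9 RPPM in KO nB, 28.5 to 39.6 (median 35.2) in KO GCB and 64.5 and 70.4 in KO BMPC, 3 groups that did not overlap (1.92 ± 0.17 from nB to BMPC, adjusted p = 4.05e-10). Bhlhe41, a bHLH repressor, had 30.3 and 25.8 RPPM in KO nB, 14.6 to 17.6 in KO GCB and 74.7 and 71.9 in KO BMPC (1.36 ± 0.16 from nB to BMPC). Its GCB libraries lay below nB, with a difference of -0.74 ± 0.14 that was under 2-fold. Zbtb32, a BTB zinc finger repressor, rose by 2.17 ± 0.26, and Ikzf3, the Ikaros family member Aiolos, by 1.05 ± 0.24, a call lost under TMM scaling (0.99), without KO nB library 2 (0.92) and without KO BMPC library 1 (0.97). The other 4 lay at Irf4, Zbtb20, Runx2 and Creb3l2. A start site of Irf4 outside the set was at 58.4 ± 2.1 RPPM in KO nB and 39.4 ± 0.76 in KO BMPC, and one of Prdm1 at 49.1 ± 5.4 and 70.3 ± 0.024. Over all 38 regions, 8 were called higher and 1 lower, and the median was 0.16.

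Surface and survival genes gave 11 of 51 regions, and 10 of the 11 were called higher, beside 85% of the whole set. Over all 51 regions, 12 were called higher in KO BMPC than in KO nB and 4 lower. BMPC were sorted on CD138, and its gene Sdc1 (chr12:8777644-8778537, at the start site) measured 21.9 and 22.2 RPPM in KO nB, 13.2 to 20.3 (median 15.2) in KO GCB and 58.7 and 53.4 in KO BMPC. BMPC stood above both other cell types (1.30 ± 0.19 against nB, 1.77 ± 0.17 against GCB), and GCB lay below nB without overlap (-0.47 ± 0.17, adjusted p = 0.0218, not called). The growth factor receptor gene Igf1r went from 23.4 and 15.2 to 72.0 and 62.9 RPPM, the adhesion molecule gene Epcam from 10.9 and 13.4 to 62.0 and 65.7, and the tetraspanin gene Cd9 from 10.7 and 5.12 to 38.6 and 42.4. All 3 had the larger part of the change between GCB and BMPC, with 2.11 ± 0.17, 2.14 ± 0.20 and 2.17 ± 0.27 there against -0.32 ± 0.17, 0.17 ± 0.20 and 0.12 ± 0.27 between nB and GCB.

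3 more genes of this list are named after their values were seen. Tnfrsf17 (chr16:11313498-11314093, at the start site) had 1 read in each KO nB library, 2.19 to 6.36 RPPM (median 2.85) in KO GCB, and 15.5 and 17.5 RPPM in KO BMPC (3.89 ± 0.38, adjusted p = 2.38e-09). The costimulatory receptor gene Cd28 went from 3.13 and 2.76 to 31.8 and 28.0 RPPM (2.97 ± 0.29). Jchain, the joining chain of polymeric immunoglobulin (chr5:88956612-88957184), was at 0.987 and 0.984 RPPM in KO nB, 19.8 to 24.8 in KO GCB and 22.5 and 25.8 in KO BMPC, so that GCB and BMPC overlapped (0.09 ± 0.21) while both stood apart from nB. The other members of the list were at Bmp6, Lgals1, Itga6 and Lag3, and the median over the list was 0.30.

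**Figure D3:**
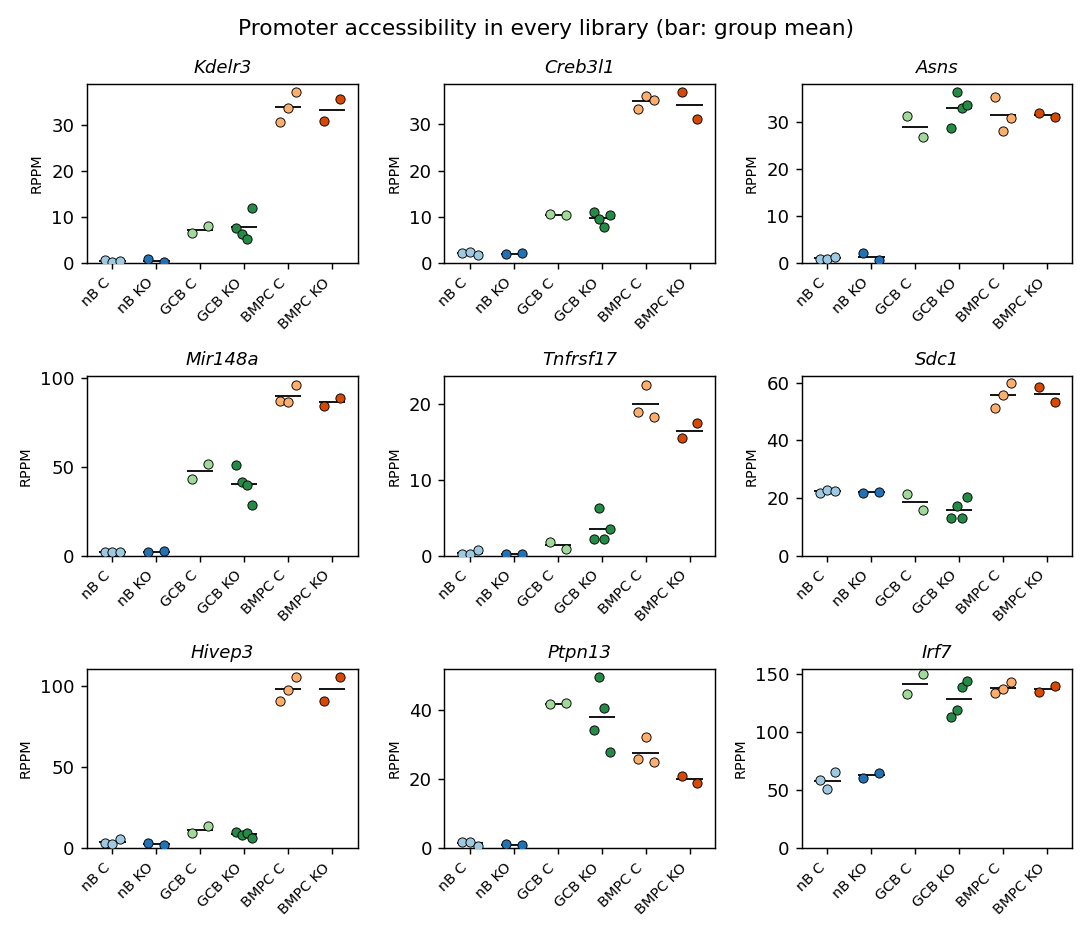
RPPM in every library for 9 promoter regions of the set, 1 point per library and a bar at each group mean, with separate linear axes from 0. Kdelr3, Creb3l1 and Mir148a rise from nB through GCB to BMPC, Asns and Irf7 reach their BMPC level in GCB, Ptpn13 is highest in GCB, and the BMPC libraries of Hivep3, Sdc1 and Tnfrsf17 stand above all nB and GCB libraries.

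The interferon response list held 4 regions of 36, all 4 called higher. Irf7 (chr7:148450643-148452684, at the start site) had 60.4 and 64.7 RPPM in KO nB, 112 to 144 (median 129) in KO GCB and 134 and 140 in KO BMPC (1.12 ± 0.12, adjusted p = 1.19e-08), where GCB and BMPC overlapped. The others were a region shared by Ifi204 and Ifi211 (2.41 ± 0.23), a second at Ifi204 (1.28 ± 0.38, adjusted p = 0.00684) and one shared by AW011738 and the ubiquitin-like modifier gene Isg15 (1.39 ± 0.22). Ifi204 belongs to a cluster of similar genes, and the call of the second region was lost without either KO nB library and without KO BMPC library 1. Of all 36 regions, 6 were called higher and 4 lower.

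Of 37 promoter regions of B cell identity genes, 16 were called lower in KO BMPC than in KO nB and 1 higher, with a median of -0.95. Beside these, 5.82% of all promoter regions and 16.9% of all regions were called lower. Pax5, the B cell commitment factor, was at 42.4 ± 7.6 RPPM in KO nB and 2.97 ± 1.3 in KO BMPC (-3.48 ± 0.26). The 2 regions in the set lay upstream of Foxo1 (4.44 and 4.72 to 19.7 and 18.9 RPPM, 1.86 ± 0.29), whose start site was at 73.7 ± 0.95 and 68.4 ± 0.16, and of Cd22, an inhibitory receptor of B cells (2.30 and 2.76 to 8.38 and 6.91, 1.29 ± 0.48, adjusted p = 0.0263, not called by limma in the fit of all groups but called by edgeR, DESeq2 and limma on the compared groups alone). A start site of Cd22 itself was called lower, from 23.2 ± 0.86 to 1.16 ± 1.1 RPPM.

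Marker genes of other cell types had 9 of their 52 promoter regions in the set (17.3%, beside 10.2% of all promoter regions). Of 22 granulocyte and monocyte genes, 8 had a promoter region. The 2 regions of this list in the set, both upstream of Cebpe, a granulocyte transcription factor, rose by 2.25 ± 0.33 and 1.40 ± 0.25. The summed level over the list was 56.8 to 68.4 RPPM in nB, 97.2 to 118 in GCB and 97.8 to 118 in BMPC. Of its 10 regions, 3 were called higher in KO BMPC than in KO nB and 1 lower, with a median of 0.61, the lower one being the macrophage integrin gene Itgam (5.04 ± 0.38 to 0.887 ± 0.46 RPPM). Mast cell genes had 2 regions, of which Kit was in the set (0.329 and 0.394 in KO nB, 12.8 and 12.7 RPPM in KO BMPC, 3.33 ± 0.45), and their summed level was 0.329 to 0.787 RPPM in nB, 3.28 to 7.71 in GCB and 5.92 to 15.9 in BMPC. In C BMPC, Kit was at 5.93 ± 3.99 RPPM. The study's flow panels stained CD11b, CD11c, CD90.2 and Ly6-G, which mark myeloid, dendritic, T cells and granulocytes, with the stated aim of removing auto-fluorescent cells. The part of other cell types in these results was not tested.

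The erythroid list had 2 of 6 regions in the set (Tal1, 0.66 ± 0.26, and Rhd, 0.78 ± 0.29, neither called), with a summed level of 83.9 to 91.3 RPPM in nB, 66.0 to 87.0 in GCB and 69.7 to 86.7 in BMPC. Of all 6, 0 were called higher in KO BMPC than in KO nB and 1 lower. The T and NK list had 2 of 13, of which the cytotoxic granzyme gene Gzma was called (2.61 ± 0.40) and Tcf7 was not (0.81 ± 0.26), and its sum was 156 to 172, 94.2 to 112 and 110 to 121 RPPM. Over all 13 regions, 1 was called higher in KO BMPC than in KO nB and 4 lower, with a median of -0.25. Plasmacytoid dendritic cell genes had 2 of 14, Tcf4 (0.66 ± 0.20) and Runx2 (0.64 ± 0.25), neither called, with sums of 279 to 311, 227 to 264 and 322 to 358 RPPM. Of these 14, 0 were called higher and 1 lower. The megakaryocyte list (4 regions, sums of 120 to 138, 101 to 150 and 114 to 125) and the stroma list (3 regions, 45.2 to 49.0, 66.2 to 90.3 and 51.4 to 59.4) had none in the set. Outside the set, 1 megakaryocyte region was called higher and 0 lower, and 0 stroma regions were called. Across the 11 lists of pathway and B lineage genes, the share of regions in the set ran from 4.17% for glycosylation to 22.2% for the unfolded protein response, beside 10.2% of all promoter regions, and 47 of the 1417 regions (3.32%) belonged to one of the 10 lists other than B cell identity.

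The set was then followed through the germinal center in KO mice. The comparisons of KO GCB with KO nB and of KO BMPC with KO GCB share the GCB libraries and are given side by side. In KO GCB, 668 regions (47.1%) were called higher than in KO nB and 17 (1.2%) lower, against 18.4% and 7.84% of all regions, and the median difference was 0.96 over the set and -0.29 over other promoter regions. Groups did not overlap upward in 920 of the regions, as in 31.2% of all regions. From KO GCB to KO BMPC, 559 regions (39.4%) were called higher and 60 (4.23%) lower, against 12.1% and 19.9% of all regions, with medians of 0.79 over the set and 0.29 over other promoter regions. Here 924 regions did not overlap upward, as in 28.8% of all regions, and the difference was below 0 in 261. The other promoter regions had a median of 27.3 RPPM in KO GCB, below their 36.0 in KO nB, and GCB libraries were the shallowest.

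**Figure D4:**
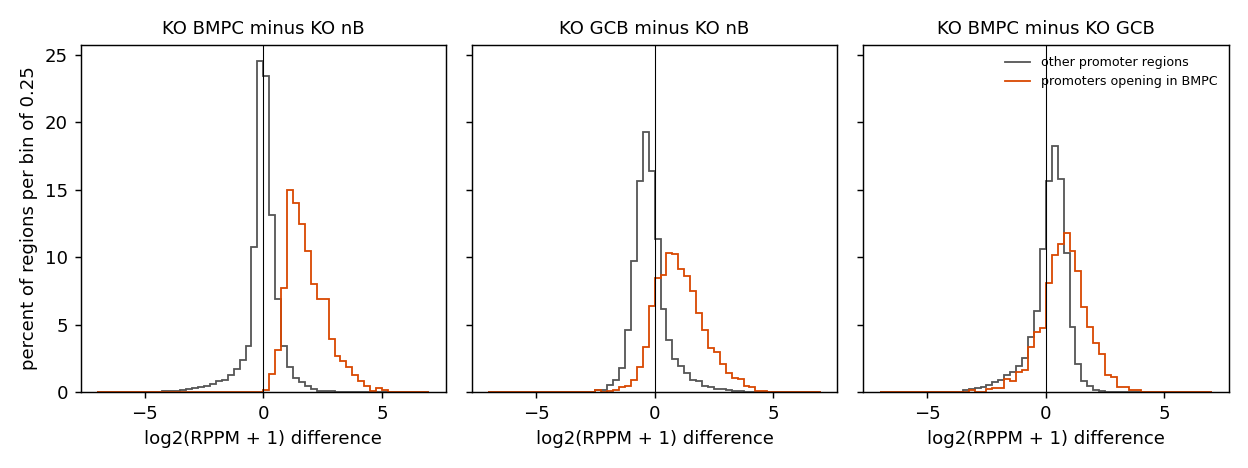
Histograms of the log2(RPPM + 1) difference in bins of 0.25, for the 1417 promoter regions opening in BMPC (orange) and the 12463 other promoter regions (grey), in 3 comparisons of KO libraries. The orange medians are 1.67, 0.96 and 0.79 and the grey medians 0.02, -0.29 and 0.29. From GCB to BMPC the orange curve has a tail below 0.

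The 5 largest rises from KO nB to KO GCB were in Zdhhc2, a palmitoyltransferase (4.74 ± 0.20), 1700009J07Rik (4.31 ± 0.25), Agfg1 (4.24 ± 0.25), the tyrosine phosphatase gene Ptpn13 (4.23 ± 0.23) and Cfap74, of the ciliary axoneme (4.19 ± 0.25). 4 of the 5 were called lower in KO BMPC than in KO GCB, Ptpn13 being the exception. Zdhhc2 (chr8:41508555-41509722, at the start site) measured 0.987 and 1.18 RPPM in KO nB, 43.3 to 60.8 (median 57.9) in KO GCB, and 27.9 and 25.4 in KO BMPC (-1.01 ± 0.20 from GCB to BMPC, adjusted p = 0.000126). Agfg1, 2456 bp upstream of the start, went from 0.658 and 0.787 through 25.3 to 45.8 to 4.86 and 5.41 RPPM (-2.41 ± 0.25). At Ptpn13, with 28.0 to 49.6 RPPM in KO GCB and 21.0 and 18.9 in KO BMPC, the difference of -0.87 ± 0.23 was under 2-fold.

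The 5 largest rises from KO GCB to KO BMPC were in the region shared by Fut1 and Fgf21 (3.84 ± 0.34), the potassium channel gene Kcnj1 (3.78 ± 0.31), Tspo, a protein of the outer mitochondrial membrane (3.68 ± 0.36), the lens crystallin genes Cryba4 and Crybb1 (3.67 ± 0.28) and Smim6 (3.50 ± 0.45). Kcnj1 (chr9:32176321-32177541, 2461 bp upstream of the start) had 2.30 and 2.56 RPPM in KO nB, 1.10 to 3.82 in KO GCB and 40.3 and 54.1 in KO BMPC. The Tspo region, 2127 bp upstream of the start, stood at 1.48 and 0.787, at 0 to 0.877, and at 17.1 and 19.6 RPPM. At both genes the GCB and nB libraries overlapped. The crystallin region was called lower in KO GCB than in KO nB (-1.001 ± 0.28, adjusted p = 0.0047), with 4.77 and 4.72 RPPM in KO nB and 0.699 to 3.30 in KO GCB.

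Genotype made no called difference in GCB. Between KO and C GCB, 0 of the 1417 regions were called higher by limma and 0 lower, against 0.0317% and 0% of all regions, and edgeR and DESeq2 also called 0. At an unadjusted p under 0.05, limma gave 132 regions (68 higher and 64 lower in KO), or 9.32% against 11.8% of all regions. edgeR gave 80 (29 higher and 51 lower), or 5.65% against 6.4%, and DESeq2 57 (17 higher and 40 lower), or 4.02% against 4.83%. Without the C library F2, Aldh3b1 (1.90 ± 0.31) and Tacc2 (1.54 ± 0.25) were called higher in KO.

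In BMPC and nB, KO and C are compared by values alone, since the rule read C. The difference of KO from C in BMPC had a median of -0.03 on the log2 scale over the set, and -0.01 to 0.01 when the regions were chosen without each C BMPC library in turn and KO was set against that library. In nB the median was -0.04. 12 regions were at -1 or below in KO BMPC, and 8 were at 1 or above, beside 8 and 16 of 10365 other promoter regions at 5 RPPM or more in C BMPC. Chosen without a C BMPC library and set against it, these counts were 9 and 6 for library 1, 19 and 32 for library 2 and 10 and 14 for library 3. In the same order, other promoter regions gave 11 and 10 of 10303, 17 and 66 of 10369 and 8 and 50 of 10349. Both KO BMPC libraries lay below every C library in 300 of the 1417 regions and above every C library in 262. Among the 10365 other promoter regions, 2553 lay below and 860 above in this way. Ttll7, a tubulin polyglutamylase, had 14.3, 14.4 and 11.7 RPPM in C BMPC and 4.98 and 2.99 in KO BMPC. Cobl, an actin nucleator, had 16.3, 16.4 and 13.5 in C and 5.83 and 5.599 in KO. A region upstream of Lman1, the cargo receptor ERGIC-53, had 12.1, 19.2 and 14.6 in C and 7.05 and 6.91 in KO. These 3 are among the 300.

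In the other direction, Klf5, a Krüppel-like factor, had 9.62, 2.55 and 5.61 RPPM in C BMPC and 18.3 and 19.6 in KO BMPC. F2rl1, a protease-activated receptor, had 15.1, 10.0 and 11.7 in C and 37.2 and 35.8 in KO. Both are among the 262. Klf5 and F2rl1 in KO GCB lay at 4.41 to 7.01 and 11.5 to 15.4 RPPM, and in C GCB at 10.1 and 11.2 and at 14.1 and 8.43. These 5 genes were picked for their gap after their values were seen.

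The position of the regions differed from that of other promoters. Of the 1417, 950 (67%) covered a start site, 397 (28%) lay upstream of one and 70 downstream, whereas 80.4% of other promoter regions covered a start site. Their median width was 768 bp, against 972 bp. Among the 467 regions off a start site, 291 (62.3%) belonged to a gene with another promoter region outside the set at 5 RPPM or more in KO nB, as at Txndc5, Vcp and Fut8, and the most open such region had a median of 45.9 RPPM. Among the 950 at a start site, 146 (15.4%) did. A gene with another promoter region outside the set at any level was found for 325 of the 467 and 217 of the 950. This was not counted for regions off a start site outside the set. Regions at and off a start site were called higher in KO BMPC against KO nB at 86.2% and 82.4%, in KO GCB against KO nB at 51.3% and 38.8%, and in KO BMPC against KO GCB at 34.7% and 49%. The regions belonged to 1379 genes, 94 of which had more than 1. Among the numbered chromosomes, the share of promoter regions in the set ran from 7.33% on chromosome 13 to 14.3% on chromosome 12.

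Regions outside promoters were counted for the same genes. Of 5215 non-promoter regions assigned to genes of the set, 1776 (34.1%) were called higher in KO BMPC than in KO nB, against 20.5% of all non-promoter autosomal regions and 18.9% of those of other genes. The share called lower was 9.61%, against 19.9% of all. At least 1 such region was called higher at 635 of 1023 genes of the set that had any (62.1%) and at 3728 of 10240 other genes (36.4%), and the number of regions per gene was not matched.

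Base composition and short motifs were read in 300 bases at the middle of each region, for 1415 of the regions and 13856 promoter regions in all. The ratio of observed to expected CpG had a median of 0.589 in the set and 0.761 in all promoter regions. At start sites the medians were 0.714 and 0.824, and off start sites they were 0.298 and 0.308. A ratio of at least 0.6 was found in 49.5% of the set and in 66.8% of all promoter regions. Regions of the set at or above 0.6 were called higher in KO GCB against KO nB at 52.3%, and those below at 42.1%. From GCB to BMPC these shares were 32.1% and 46.7%.

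**Figure D5:**
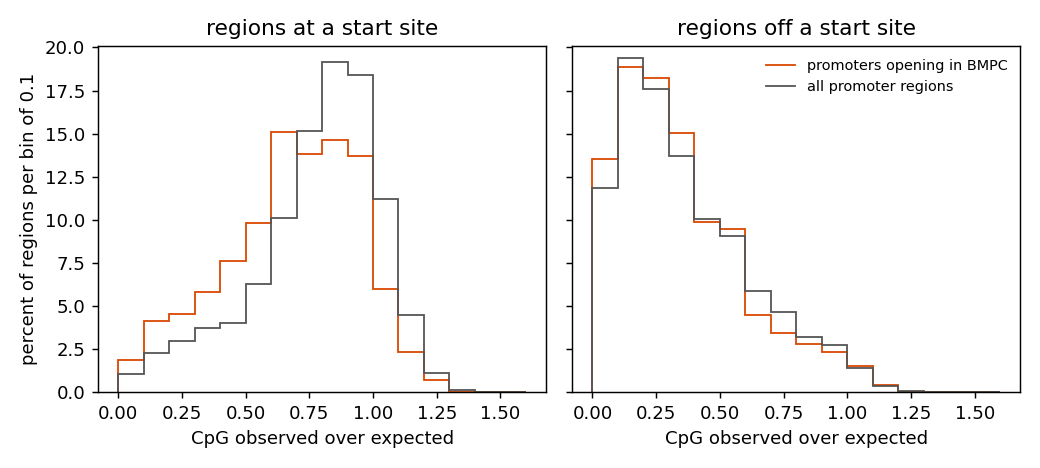
Percent of regions per bin of 0.1 in the ratio of observed to expected CpG, for promoter regions opening in BMPC (orange) and all promoter regions (grey), split by whether the region covers a start site. At a start site the orange curve is shifted to lower ratios (medians 0.714 and 0.824), and off a start site the curves nearly coincide (0.298 and 0.308).

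Letters were searched on both strands and counted once per window. The E-box CAGGTG was present in 33.0% of the set and 22.3% of all promoter regions, and CAGCTG in 23.0% and 17.6%. The octamer ATTTGCAT was found in 3.39% and 1.61%, the IRF-type repeat of GAAA, any 2 bases and GAAA in 5.72% and 3.62%, and the AP-1 site TGAGTCA in 5.80% and 3.25%. The PU.1-type site GAGGAAGT was in 2.12% and 3.63%, and the CRE TGACGTCA in 1.13% and 2.00%. Off start sites, where the CpG ratios above were close, the shares were 40.6% and 28.5% for CAGGTG, 6.44% and 3.44% for the octamer, 10.7% and 6.37% for the IRF-type repeat, 3.86% and 6.37% for GAGGAAGT, 7.08% and 5.99% for TGAGTCA and 0.858% and 0.654% for TGACGTCA. At start sites they were 29.3% and 20.6% for CAGGTG, 1.90% and 1.12% for the octamer, 3.27% and 2.89% for the IRF-type repeat, 1.26% and 2.90% for GAGGAAGT, 5.16% and 2.53% for TGAGTCA and 1.26% and 2.36% for TGACGTCA. The XBP1-type site TGACGTGG (0.919% and 0.693%), GAAAGTGA as bound by PRDM1 (1.48% and 1.42%), CCAAT (26.6% and 28.4%) and GATAAG (4.31% and 4.03%) stood at shares close to those of all promoters, and the ER stress element (CCAAT, any 9 bases, CCACG) was in 0 windows of the set and 8 in all. These are shares of windows holding the letters, the IRF-type repeat can overlap GAAAGTGA, and a match is not evidence that a factor was bound.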

How the data were processed

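ATAC-seq values of 16 libraries were analysed in 6 groups taken from the labels, and 1 of 17 labelled samples (KO BMPC) had no values to analyse. The authors aligned reads to mm9, took the union of MACS2 peaks called per library, and deposited RPM values (reads in a region per 1e6 reads in all regions of the library, RPPM). The submitters' processing notes list Bowtie 1.1.1, Picard 1.127, MACS2 2.1.0.20140616 and edgeR 3.12.1. The table also holds log2 fold changes, p-values and FDR of 9 comparisons by the authors, which were not used. Dividing each deposited RPM value by that of 1 read gave whole numbers (100% within 0.01), which served as counts for edgeR and DESeq2. Intervals and floors cover counting error only, as reads are not independent molecules.

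The main test was limma 3.58.1 (R 4.3.3) on log2(RPPM + 1) with a variance trend, 6 groups in 1 fit and Benjamini-Hochberg adjustment over 66177 regions. The pseudocount understates changes of low regions. Groups of 2 libraries share the spread of all groups. Alternatives were pseudocounts of 0.1 and 5, a filter at a mean of 1 RPPM, TMM scaling, edgeR 4.0.16, DESeq2 1.42.0, the compared groups alone, each library left out and, for GCB, a block on pool names. The fit was tested on simulated data. Sequences were read from the NCBIM37 (mm9) genome with pysam 0.24.0 and a microRNA from RefSeq, gene names from the table, with 1375 of 1379 genes named after matching to RefSeq.

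The regions and gene lists were chosen with earlier results of these data known, and the lists come from textbook knowledge. Tests on 2 to 4 libraries a group measure the spread between libraries. Named are, per list, the 4 regions with the highest mean in KO BMPC, the 10 largest and 5 smallest changes of KO BMPC against KO nB, the 5 largest of KO GCB against KO nB and of KO BMPC against KO GCB, the 5 highest in C BMPC and the 3 on either side of each limit. Other genes, the regions whose sequence is shown and the split by position and CpG were chosen after values were seen. 1 promoter sequence and the name of a driver allele are not reported here.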

Additional observations from a re-analysis of the deposited data

Results flagged for a closer look

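Among 84 regions of the set whose 4 KO GCB values were tested, 2 (2.38%) had 1 library far from the rest by Dixon's test, where chance flags about 1 in 20. At Tmed7 the KO GCB library F3 was at 14.9 RPPM, while the other three were at 11.01, 11.2 and 11.5 RPPM. At Tal1 the KO GCB library F1, the shallowest, was at 13.2 RPPM, while the other three were at 8.33, 8.39 and 8.91 RPPM. Neither region was called in any of the 4 comparisons.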

How the results depend on the processing

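In KO BMPC against KO nB, 858 to 1248 regions were called higher under the alternatives that kept all libraries and 1021 to 1081 with 1 library left out, and 0 lower under each. With a pseudocount of 5 RPPM, the calls fell to 355 higher and 31 lower in KO BMPC against KO GCB, to 349 higher and 7 lower in KO GCB against KO nB, and to 978 non-promoter regions higher. A larger pseudocount shrinks the fold of low regions by construction. Leaving out 1 library gave 11 to 21 regions lower in KO GCB against KO nB (11 without nB KO library 1) and 0 to 2 higher in KO GCB against C GCB (2 without C library F2). The cause was not tested. For non-promoter regions, all alternatives but the pseudocount of 0.1 and edgeR were chosen after seeing the data. A rule of at least 3-fold in place of 2-fold left 885 regions, and choosing without 1 C library gave 1382 to 1473.

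Libraries named F2 and M1 exist for each GCB genotype, and the deviations of same-named libraries had correlations of 0.036 and 0.064. The deviations of the 2 C libraries mirror each other, so these correlations cannot show what same-named libraries share. With the names as a replicate block, 3 regions were called higher in KO GCB (Rab37, Pacsin2 and Aldh3b1), the effect of the block being given as a count only.

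Of the named regions, Sh3bp4 was the 1 whose direction reversed, to -0.10 without BMPC KO library 1 (range -0.10 to 0.51 with 1 library left out). Over the named regions and alternatives, 887 values kept their direction and call, 29 lost the call and 7 gained it. The lost calls include Zfp658, at 0.93 to 0.97 under 5 alternatives. GCB libraries were the shallowest, with 51 to 258 regions per library at or under 3 reads. This held for 146 to 178 regions per library in nB and 0 in BMPC.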

Other observations

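By the first letters of their symbols, solute carrier genes (Slc) had 34 of 262 promoter regions in the set (13%), and 33 of the 34 were called higher in KO BMPC than in KO nB. Transmembrane protein genes (Tmem) had 26 of 194 (13.4%), with 22 called, and Rab GTPase genes 10 of 89 (11.2%), with 8 called. Zinc finger genes (Zfp) had 17 of 355 (4.79%) and clustered histone genes (Hist) 0 of 32. Among Hox genes 6 of 17 regions were in the set and 3 were called. MicroRNA genes (Mir) had 13 of 114 (11.4%), with 11 called. The share of all promoter regions in the set was 10.2%, and these families were picked after the values were seen. Of the whole set 85% were called higher in the same comparison, and of all regions 18.4%.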
